A study of Caenorhabditis elegans with 21 samples.

Results

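The tubulin genes described here were 10 genes, 6 for α-tubulins (tba-1, tba-2, tba-5, tba-6, tba-9 and mec-12) and 4 for β-tubulins (tbb-1, tbb-2, tbb-4 and mec-7), chosen by name. All 10 had a row among the 17720 genes of the adult data and among the 23184 genes of the L1 data, L1 being the first larval stage. They were followed in RNA sequencing of whole wild-type N2 *Caenorhabditis elegans* hermaphrodites, in 7 groups of 3 libraries. The adult groups were control animals that had always been fed, fertile F4L1starved animals and sterile F4L1starved animals, all on day 1 of adulthood, fed when collected, and pooled 100 per library. F4L1starved animals had been starved at the L1 stage after hatching, as had the generations before them. Fertile animals and controls were picked for carrying eggs and sterile animals for carrying none, so that eggs enter the RNA of the former groups only. The L1 groups were a control line and an F4+3 line, the latter descending from F4L1starved animals over fed generations, each collected with food (fed) and without food (starved), at 10000 animals per library. Starved L1 animals were collected at a later time after egg preparation than fed ones, so food and time cannot be told apart. Nothing in the labels says whether replicates came from separate cultures, although the study describes them as independent.

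Microtubules are hollow polymers of α- and β-tubulin dimers, and worms build them from several isotypes that differ between tissues. TBA-1, TBA-2, TBB-1 and TBB-2 are the general isotypes, which form the mitotic and meiotic spindles of the germline and the early embryo and are also made in somatic cells. MEC-12 and MEC-7 form the wide microtubule bundles of the touch receptor neurons, which sense gentle touch, and MEC-12 is made in other neurons too. TBA-5, TBA-6, TBA-9 and TBB-4 are tubulins of the cilia of sensory neurons.

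By the WBcel235 annotation, tba-1, tba-2, tba-5 and tba-6 lie on chromosome I, mec-12, tbb-1 and tbb-2 on chromosome III, and tba-9, tbb-4 and mec-7 on chromosome X. All are protein-coding, with 1470 to 1817 bases of merged exons. Tubulin genes are similar in sequence, and how reads that fit several of them were counted is not given in the sources used here, so a part of the signal of a low gene could come from an abundant one.

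Recovered reads per library ranged from 12187063 to 22942483 in adults and from 25209530 to 53482585 in L1 animals. The ribosomal RNA gene rrn-3.1 took 8.21% to 9.55% of normalized counts in control adults, 11.5% to 16.6% in fertile and 17.5% to 22.9% in sterile adults, and at most 1.62% in L1 libraries; its part in the results was not tested. Of 13 germline markers, 0 rose and 2 fell in fertile adults by the test used below, though the log2 changes of all 13 were below 0 (median -0.42). Those of all 15 oocyte and early embryo markers were below 0 there too (median -0.55, against -0.11 over all genes). In sterile adults all 13 germline and all 15 oocyte and early embryo markers fell, and 10 of 11 tested sperm markers rose. Against controls, 9.86% of all genes tested rose and 12% fell in fertile adults, and 41.3% rose and 41.8% fell in sterile adults. Summed oocyte and early embryo markers came to normalized counts of 266505 to 310340 in control, 171467 to 214305 in fertile and 24411 to 56601 in sterile adults. In controls 2 of 13 sperm markers had no read in any library, and no marker of neurons, touch receptor neurons, ciliated neurons, germline or oocytes was without reads in any group.

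Per kilobase of exon, tbb-2 had the highest level among the 10 genes in control adults, with a normalized count per kilobase of 13858 ± 1345 (SD, n = 3). It was followed by tba-2 (9185 ± 712), tba-1 (8830 ± 816) and tbb-1 (6920 ± 882), of which tba-2 and tba-1 lay within their spread of each other. The touch neuron genes were far lower, mec-12 at 159 ± 12.1 and mec-7 at 97.6 ± 6.63, and the ciliary genes lower again, tba-9 at 27.6 ± 8.47, tbb-4 at 12.1 ± 1.15, tba-5 at 2.14 ± 1.39 and tba-6 at 0.571 ± 0.624. The order of these classes was the same in fed control L1 animals, with tbb-2 at 25574 ± 6288 per kilobase, mec-12 at 4361 ± 333, mec-7 at 3131 ± 529 and tba-6 lowest at 37.6 ± 5.64. Adult and L1 data were normalized separately, so levels are compared across them only as shares within a library.

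As a share of all α-tubulin counts per kilobase, mec-12 made up 0.856% ± 0.0948 in control adults and 9.14% ± 0.732 in fed control L1 animals (SD, n = 3 each). The corresponding share of mec-7 in the β-tubulin counts was 0.461% ± 0.0174 and 7.34% ± 0.766. The α pool of L1 animals also held tba-8, at 1.44% ± 0.572 in fed controls, which was not among the genes of the adult data. The general isotypes together made up 96.2% ± 0.414 of the α pool and 97.9% ± 0.101 of the β pool in control adults, against 85.3% ± 0.439 and 89.03% ± 1.56 in fed control L1 animals. The 4 general genes, known for their role in the germline, also had the highest mean levels per kilobase of the 10 in fed control L1 larvae, whose germline holds only a few precursor cells.

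**Figure D1:**
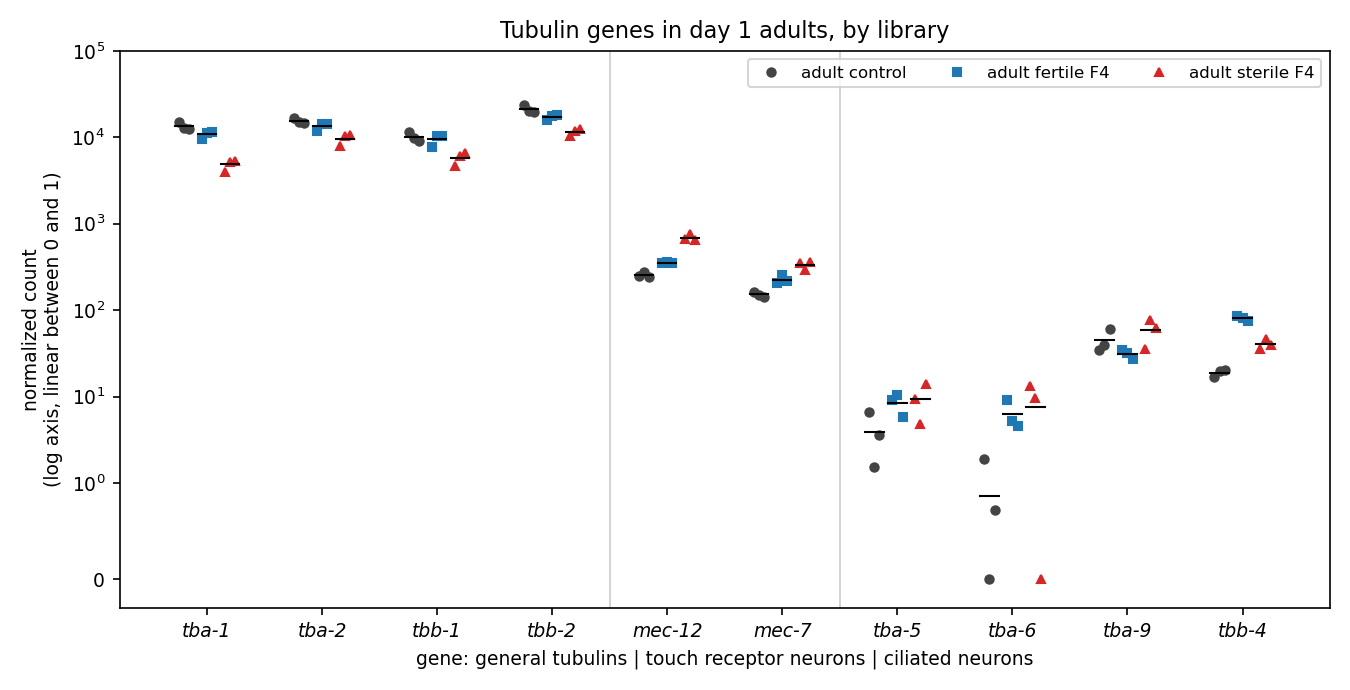
Normalized counts of the 10 tubulin genes in each adult library (vertical axis logarithmic above 1 and linear below), with points for libraries, black bars for group means, and colours and symbols for control, fertile and sterile groups (n = 3 each). General tubulins are lowest in sterile adults, mec-12 and mec-7 are highest there, and tbb-4 is highest in fertile adults.

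Fertile F4L1starved adults were compared with controls to see what L1 starvation had left behind in fed adults that carried eggs. The ciliary β-tubulin tbb-4 rose most among the tubulins, 4.11-fold. Both touch neuron tubulins rose less, mec-7 1.47-fold and mec-12 1.38-fold, and no general tubulin passed the test in either direction. The test took genes whose normalized count averaged 10 or more, which left 8 of the 10 tubulins. Of these 3 rose and 0 fell, where 21.9% of all 13413 genes tested were called, 9.86% rising and 12% falling. Calls are those of limma on log2(normalized count + 1) at an adjusted p of 0.05 (Benjamini-Hochberg over all genes), and folds are on that scale. The median log2 change was -0.16 over the 8 tubulins and -0.11 over all genes.

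The control libraries held normalized counts of tbb-4 of 16.9, 19.7 and 20.2, the fertile ones 84.8, 81.6 and 75.6, and the sterile ones 35.9, 46.0 and 39.7. The 3 groups did not overlap, with fertile highest and control lowest. The log2 change from control to fertile adults was 2.04 (SE 0.24, adjusted p = 0.00108, limma).

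The other ciliary tubulins were not called in this comparison. For tba-9 the normalized counts were 34.6, 39.4 and 60.5 in controls and 34.4, 31.6 and 27.5 in fertile adults, a log2 difference of -0.48 (95% interval -1.196 to 0.24). The α-tubulins tba-5 and tba-6 were too low to test. Normalized counts of tba-5 were 6.56, 1.52 and 3.60 in control, 9.23, 10.5 and 5.73 in fertile and 9.30, 4.76 and 14.1 in sterile adults, and the 3 groups overlapped. For tba-6 the normalized counts were 1.87, 0 and 0.721 in controls, 9.23, 5.26 and 4.58 in fertile and 13.3, 9.52 and 0 in sterile adults. The control replicate 2 and the sterile replicate 3 at 0 reads allow up to 3 reads each, a normalized count of 2.27 and 2.65, so a level like that of the other sterile libraries lies above what replicate 3 allows. These limits cover counting error only.

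Other genes of ciliated neurons were higher too in fertile adults: 12 of 24 tested markers rose and 0 fell, with a median log2 change of 1.13. They included dyf-7, which anchors the tips of sensory dendrites (4.44-fold, adjusted p = 0.00186), klp-11, a motor of intraflagellar transport (2.42-fold, 0.0025), che-3, the dynein heavy chain of cilia (2.11-fold, 0.00248), and osm-5, an intraflagellar transport protein (3.49-fold, 0.00721). Summed ciliated neuron markers came to 1845 to 1886 in control and 2417 to 2883 in fertile adults. Markers of other cells rose in fertile adults as well, 5 of 11 tested for sperm (0 fell, median log2 change 0.85) and 6 of 14 for all neurons (1 fell, median 0.32), where 9.86% of all genes rose. The part of these in the tubulin changes was not tested. In bulk RNA of whole animals, fewer cells of a type and less RNA per cell cannot be told apart.

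Normalized counts of mec-7, the touch neuron β-tubulin, were 164, 151 and 143 in control and 205, 254 and 219 in fertile adults. Those of its α partner mec-12 were 251, 279 and 241 against 353, 361 and 348. Neither pair of groups overlapped, as held for 51.1% of all genes tested. The log2 changes were 0.56 (SE 0.16, adjusted p = 0.0279) and 0.46 (SE 0.13, adjusted p = 0.0264, limma). Of 8 tested touch receptor neuron markers, 1 rose and 0 fell, where 9.86% of all genes rose and 12% fell. The log2 changes of these markers were above 0 for 7 and below 0 for 1, with a median of 0.61. Summed touch receptor neuron markers came to 222 to 251 in control and 330 to 384 in fertile adults. Their part in the changes of mec-7 and mec-12 was not tested.

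Among the general tubulins, tbb-2 held 23304, 20138 and 19501 in controls and 15653, 17654 and 17833 in fertile adults, and tba-1 held 14811, 12852 and 12523 against 9555, 11318 and 11522. Every fertile library lay below every control library for both genes and narrowly for tba-2 (at most 14398 against at least 14429), but not for tbb-1. Of all genes tested, 51.1% did not overlap between these groups. The log2 differences of tbb-2 and tba-1, -0.30 (95% interval -0.56 to -0.04) and -0.31 (-0.60 to -0.02), did not pass after adjustment (adjusted p = 0.0874 and 0.109, limma). For tba-2 and tbb-1 the differences were -0.20 (-0.50 to 0.10) and -0.12 (-0.47 to 0.24), and that of tbb-1 turned to 0.016 with TMM scaling and 0.036 in edgeR.

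The count of 3 tubulins in fertile adults depended on which libraries were fitted. It was 1 without any of control replicates 1, 2 or 3 or fertile replicates 2 or 3, and 5 without sterile replicate 1, which takes part only in the shared estimate of spread. The log2 change of tbb-4 stayed called in all of these fits, and of the other tubulins of the worm tbb-6, a divergent β-tubulin, rose 1.98-fold (adjusted p = 0.0131, limma).

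**Figure D2:**
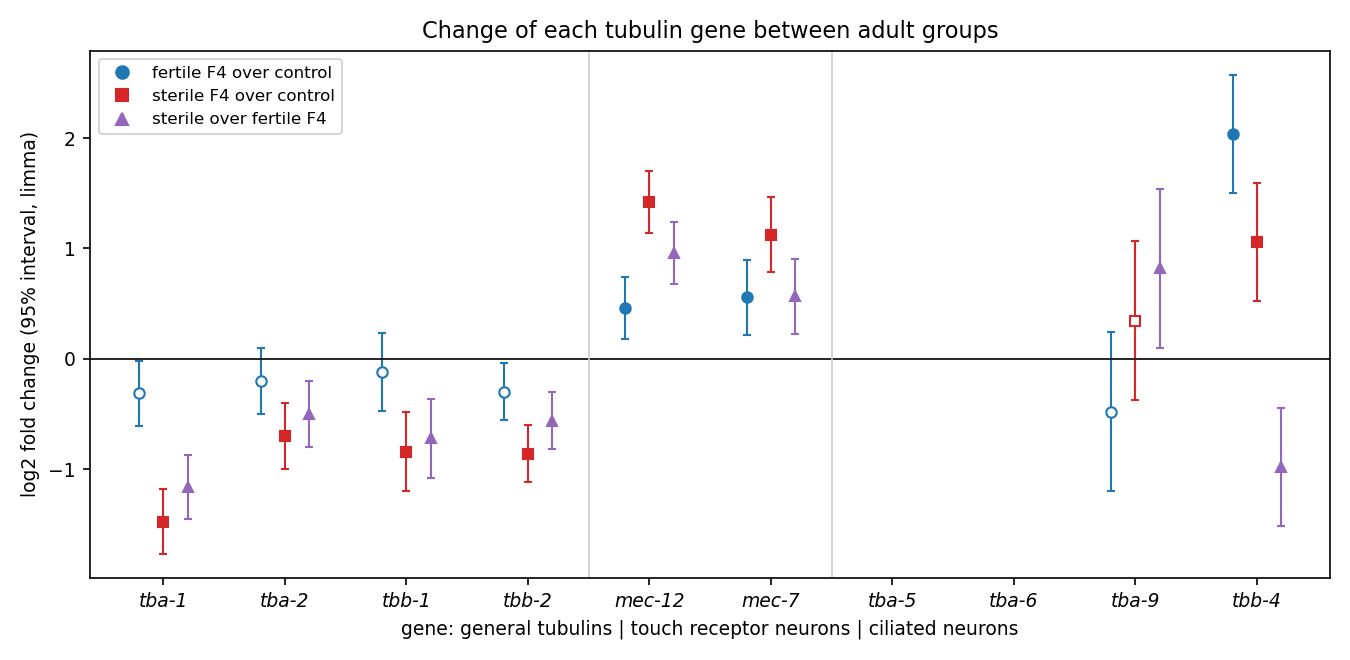
Log2 fold change of each tubulin gene with its 95% interval (limma) for fertile over control, sterile over control and sterile over fertile adults, with filled symbols for adjusted p under 0.05. The 4 general tubulins lie below 0 in sterile adults against either group, tbb-4 lies at 2.04 in fertile and 1.06 in sterile adults over control, and tba-5 and tba-6 were too low to test.

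Sterile F4L1starved adults were set against controls to describe animals that carried no eggs when collected, after the same starvation. Whether these animals would have reproduced later was not tested. All 4 general tubulins fell, between 1.62-fold for tba-2 and 2.77-fold for tba-1. The neuronal tubulins mec-12, mec-7 and tbb-4 rose, 2.68-fold, 2.18-fold and 2.08-fold. That made 7 of 8 tested tubulins, 3 rising and 4 falling, where 83% of all genes tested were called, 41.3% rising and 41.8% falling, so the count is near the background. Groups did not overlap for 86% of all genes. This comparison and that of fertile adults share the control libraries. The median log2 change was -0.18 over the 8 tubulins and 0.14 over all genes, and the latter moved to 0.32 with TMM scaling and 0.38 in edgeR. All 7 calls kept their direction in these fits.

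For tba-1 the sterile libraries held 4006, 5184 and 5373 against 12523 to 14811 in controls, a log2 change of -1.47 (SE 0.13, adjusted p = 1.2e-06, limma). The close paralog tba-2 held 7861, 10331 and 10473 against 14429 to 16729, a change of -0.70 (SE 0.14, adjusted p = 0.000493). Neither gene overlapped between these groups. The log2 ratio of tba-1 to tba-2 within a library, on which scaling has no bearing, was -0.23 to -0.18 in control, -0.34 to -0.29 in fertile and -0.99 to -0.96 in sterile adults.

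The β isotypes instead kept nearly the same ratio to each other in sterile as in control adults. Sterile libraries held 4585, 6025 and 6544 of tbb-1, a log2 change of -0.84 (SE 0.16), and 10260, 11944 and 12551 of tbb-2, a change of -0.86 (SE 0.12; adjusted p = 0.000444 and 2.81e-05, limma). The log2 ratio of tbb-1 to tbb-2 was -1.05 ± 0.0536 in control and -1.03 ± 0.117 in sterile adults (SD, n = 3), a difference of 0.02 (exact permutation test, two-sided, p = 0.8).

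The touch neuron tubulin mec-12 held 660, 768 and 645 in sterile adults, above all 6 control and fertile libraries, with a log2 change of 1.42 over control (SE 0.13, adjusted p = 1.06e-06, limma). For mec-7 the sterile libraries held 353, 290 and 362, also above all others, with a change of 1.13 (SE 0.16, adjusted p = 2.89e-05). Of 8 tested touch receptor neuron markers, 7 rose and 0 fell, among them mec-17, the enzyme that acetylates α-tubulin, 2.64-fold (adjusted p = 0.000231), and mec-1, an extracellular matrix protein of touch neurons, 3.04-fold (adjusted p = 3.83e-06). Of 14 markers of all neurons 12 rose and 2 fell, and their summed level was 4934 to 5136 in control and 10499 to 11394 in sterile adults. All 8 body wall muscle markers rose as well, where 41.3% of all genes rose and 41.8% fell.

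The general isotypes made up 81.7% ± 1.89 of the α pool and 92.4% ± 0.636 of the β pool in sterile adults (SD, n = 3). The share of mec-12 was 3.98% ± 0.530 and that of mec-7 1.74% ± 0.331. A larger share than that of mec-12 belonged in each adult group to tba-4, an α-tubulin outside the list. Its share was 12.8% ± 1.08 in sterile and 3.49% ± 0.267 in fertile adults against 2.58% ± 0.323 in controls. From control to sterile adults tba-4 rose 2.87-fold (adjusted p = 3.49e-07, limma), as did tba-7 3.40-fold, tbb-6 6.31-fold and ben-1, the β-tubulin that benzimidazole drugs bind, 1.58-fold. The γ-tubulin gene tbg-1, which nucleates microtubules, fell 2.78-fold.

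Sterile and fertile F4L1starved adults had the same starvation history and were sorted by whether they carried eggs. Reproduction and the severity of the response to starvation cannot be told apart in their comparison. All 8 tested tubulins were called, 3 higher and 5 lower in sterile animals, where 78.4% of all genes were called, 38.8% higher and 39.6% lower, and 78.5% did not overlap. The general tubulins fell again, from 1.42-fold for tba-2 to 2.23-fold for tba-1, and mec-12 and mec-7 rose 1.94-fold and 1.48-fold. This comparison shares its sterile and fertile libraries with the others, so its values are not independent of theirs.

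The exception among neuronal tubulins was tbb-4, which fell 1.97-fold from fertile to sterile adults (log2 change -0.98, SE 0.24, adjusted p = 0.00308, limma). The ciliated neuron markers went both ways here, with 4 of 24 higher and 4 lower, where 38.8% of all genes were higher and 39.6% lower. Of those that rose in fertile adults, dyf-7 fell 3.23-fold (adjusted p = 0.000367) and klp-11 2.16-fold (adjusted p = 0.000337) from fertile to sterile. The gene che-10, for a protein of the ciliary rootlet, rose 2.05-fold. Of the other genes that rose in fertile adults, che-3 rose further in sterile adults, 1.47-fold (adjusted p = 0.00983, limma), and osm-5 was not called (log2 change -0.35, adjusted p = 0.382). The transcription factor gene daf-19, which controls ciliary genes, fell 2.07-fold.

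The ciliary α-tubulin tba-9 held 35.9, 76.2 and 62.7 in sterile adults, above the fertile libraries at 27.5 to 34.4 and overlapping with controls. Its log2 change of 0.82 (SE 0.33, adjusted p = 0.0376, limma) was no longer called when only these 2 groups were fitted (adjusted p = 0.0611, and 0.0713 with the replicate number as a block) or without control replicate 2, fertile replicates 2 or 3, or sterile replicates 2 or 3.

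**Figure D3:**
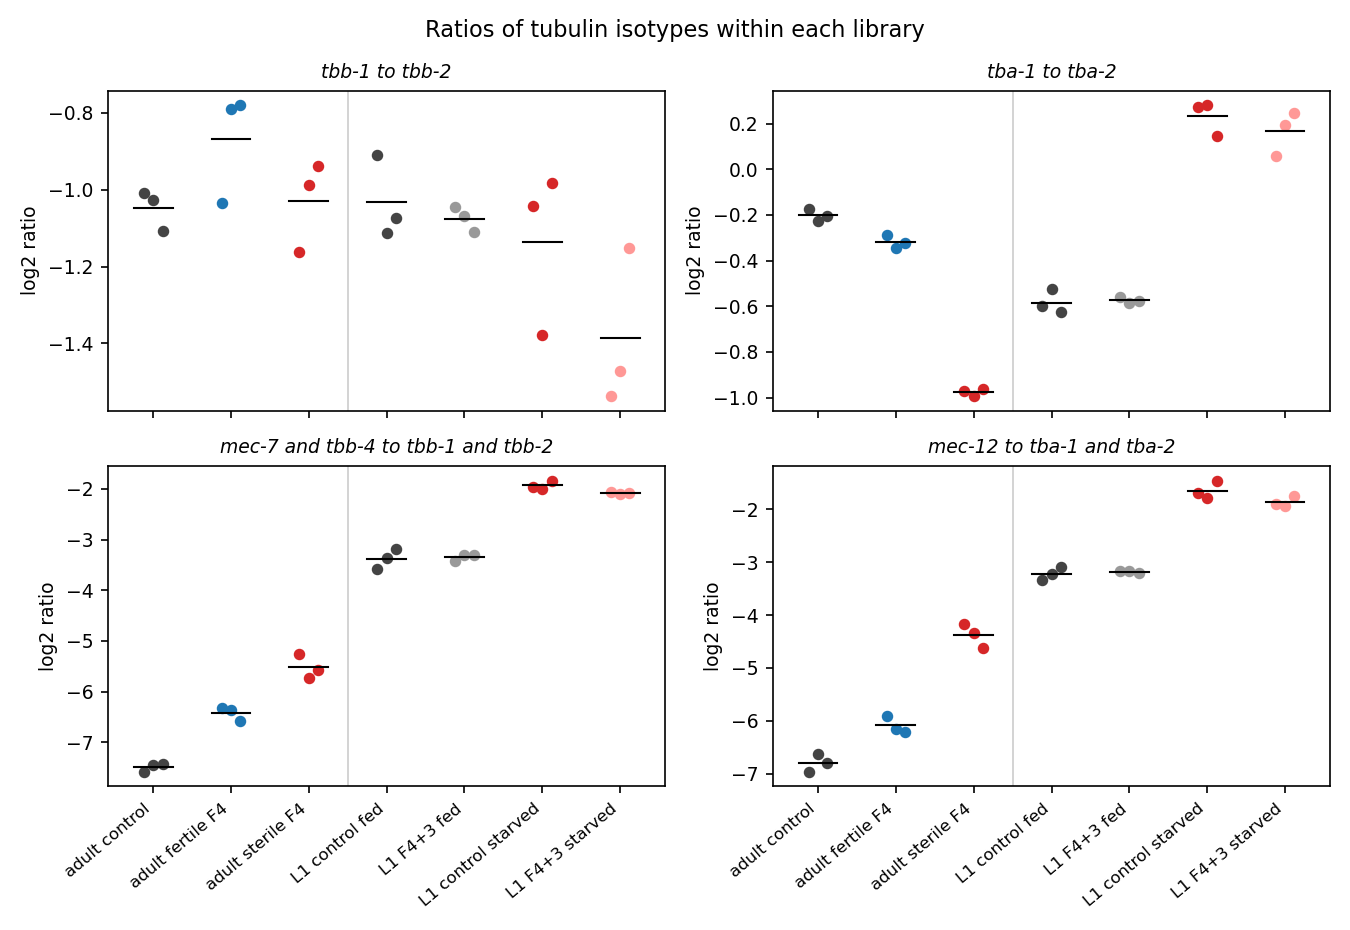
Log2 ratio of normalized counts within each library for 4 pairs of tubulin isotypes or isotype sums in all 7 groups, with points for libraries and black bars for group means (n = 3). The tba-1 to tba-2 ratio is lowest in sterile adults and above 0 only in starved L1 libraries, and the ratios of neuronal to general isotypes are higher in sterile than in control adults and in starved than in fed L1 animals.

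**Figure D4:**
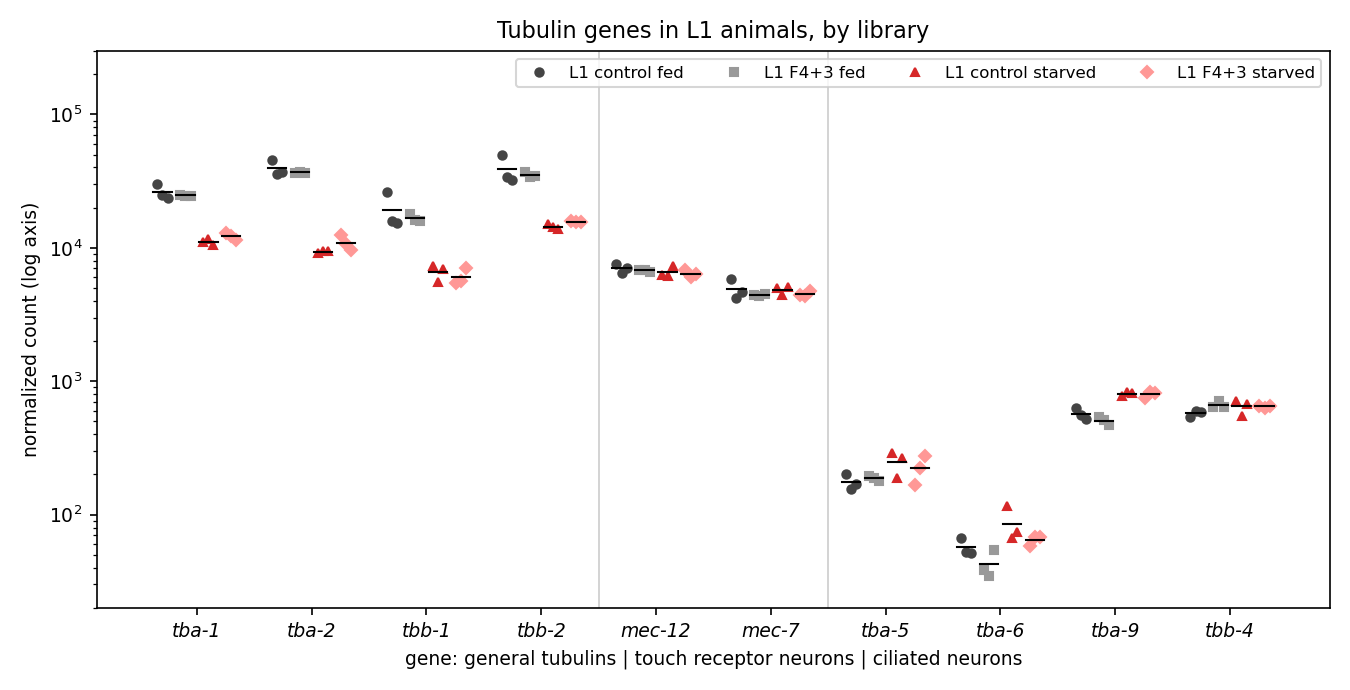
Normalized counts of the 10 tubulin genes in each L1 library (logarithmic axis), with points for libraries, black bars for group means, and colours and symbols for the control and F4+3 lines with and without food (n = 3 each). General tubulins are lower without food in both lines, while mec-12 and mec-7 overlap between fed and starved libraries.

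In L1 animals the absence of food, which arrests growth after hatching, went with lower general tubulins in both lines. In the control line tba-2 fell 4.19-fold, tbb-1 2.84-fold, tbb-2 2.64-fold and tba-1 2.38-fold. The touch neuron tubulins mec-12 and mec-7 and the ciliary tbb-4 did not pass the test, and the ciliary α-tubulins tba-5, tba-6 and tba-9 rose 1.39-fold to 1.46-fold. In total 3 tubulins rose and 4 fell of 10 tested, at a threshold for adjusted p of 0.1 and where 58.1% of all 15902 genes were called, 27.6% rising and 30.5% falling, and 58.3% did not overlap. The median log2 change was -0.053 over the 10 tubulins and 0.037 over all genes.

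For tba-2 the fed control libraries held 45866, 35867 and 36740 and the starved ones 9115, 9496 and 9515. The log2 change was -2.07 (SE 0.12, adjusted p = 5.75e-09, limma), and it was -1.75 (SE 0.12, adjusted p = 2.56e-08) in the F4+3 line, where fed libraries held 36605 to 36917 and starved ones 9689 to 12413. Fed and starved libraries were far apart in both lines.

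For tba-1 the fed control libraries held 30296, 24904 and 23793 and the starved ones 11020, 11540 and 10525. The log2 change was -1.25 (SE 0.11, adjusted p = 2.35e-07, limma), less than that of tba-2. The log2 ratio of tba-1 to tba-2 accordingly lay at -0.63 to -0.53 in fed and 0.15 to 0.28 in starved control libraries, and at -0.58 to -0.56 against 0.06 to 0.25 in the F4+3 line. Per kilobase the level of tba-1 was 7270 ± 335 and that of tba-2 5594 ± 135 in starved control animals, against 17357 ± 2293 and 23563 ± 3304 in fed ones (SD, n = 3), so the order of the pair differed between the groups.

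The β-tubulin tbb-1 held 26413, 15834 and 15326 in fed and 7308, 5538 and 6937 in starved control animals, a log2 change of -1.50 (SE 0.18, adjusted p = 6.13e-06, limma). For tbb-2 the libraries held 49654, 34230 and 32272 against 15066, 14393 and 13715, a change of -1.40 (SE 0.14, adjusted p = 8.11e-07). Fed control replicate 1 stood above the other fed libraries for all 4 general tubulins. Without it the changes were -1.95 for tba-2, -1.25 for tbb-1, -1.21 for tbb-2 and -1.14 for tba-1, all still called.

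The F4+3 line gave log2 changes from fed to starved of -1.02 for tba-1, -1.47 for tbb-1 and -1.16 for tbb-2. Of its 10 tubulins 2 rose and 4 fell, where 57.5% of all genes were called, 27.1% rising and 30.4% falling, and 59.3% did not overlap. The difference between the lines in the response to food was tested as an interaction and was called for 0 of the 10 (smallest adjusted p = 1.00, 0 at an unadjusted p under 0.05, 0 in edgeR and 0 in DESeq2). The interaction of tba-2, the control line's larger fall, had a log2 value of -0.31 (95% interval -0.67 to 0.05).

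The touch neuron tubulins did not pass the test for food. Libraries of mec-7 held 5825, 4237 and 4629 with and 5020, 4431 and 5106 without food in the control line, and 4384 to 4478 against 4342 to 4708 in the F4+3 line. The log2 differences were -0.0028 (95% interval -0.25 to 0.24) and 0.014 (-0.23 to 0.26), and the direction of the former turned in edgeR and DESeq2. Those of mec-12 were -0.10 (-0.32 to 0.11) and -0.084 (-0.30 to 0.13), so a change of the size seen in the general tubulins lies outside all 4 intervals. Of 9 touch receptor neuron markers, 3 rose, 1 fell and 5 were not called in the control line, and 4 rose and 0 fell in the F4+3 line, where 27.6% and 27.1% of all genes rose. In the control line mec-1 was 1.38-fold higher (adjusted p = 0.00141, limma) and mec-6 fell with a log2 change of -0.48.

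Of the ciliary genes tba-9 moved most steadily: its libraries held 628, 555 and 522 with and 770, 831 and 822 without food in the control line. The log2 change was 0.51 (SE 0.11, adjusted p = 0.00137, limma) there and 0.66 (SE 0.11, adjusted p = 0.000155) in the F4+3 line, where fed libraries held 473 to 535 and starved ones 748 to 834. No starved library overlapped with a fed library.

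The α-tubulin tba-5 was called in the control line (log2 change 0.48, SE 0.20, adjusted p = 0.0604), from 201, 156 and 170 to 291, 188 and 264, which overlap. In the F4+3 line the value was 0.22 (95% interval -0.21 to 0.64), and the difference between the lines was 0.26 (-0.35 to 0.87) and not called. For tba-6 the change was 0.55 in the control line, with 51.5 to 66.9 in fed and 67.2 to 115 in starved libraries, and 0.62 in the F4+3 line, with 34.9 to 54.02 in fed and 58.6 to 68.3 in starved libraries. These low genes depended on single libraries: in the control line the call of tba-5 was lost without fed replicates 2 or 3 or starved replicates 1 or 3, and that of tba-6 also without F4+3 starved replicate 2. In the F4+3 line the call of tba-6 was lost without fed replicates 1 or 2 or starved replicates 2 or 3.

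The ciliary β-tubulin tbb-4 held 540, 602 and 591 with and 711, 550 and 678 without food in the control line. The log2 difference of 0.15 (95% interval -0.10 to 0.41) was not called with all libraries but was called without starved replicate 2 (0.27, adjusted p = 0.0869, limma). In the F4+3 line the difference was -0.032 (-0.29 to 0.22). Ciliated neuron markers rose in 16 of 29 cases and fell in 1 in the control line, and in 20 and 1 in the F4+3 line, with median log2 changes of 0.32 and 0.38. Of all genes 27.6% rose and 30.5% fell in the control line, and 27.1% rose and 30.4% fell in the F4+3 line.

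With the general tubulins lower, the neuronal isotypes took a larger share of the tubulin RNA. The share of mec-12 in the α pool was 9.14% ± 0.732 in fed and 21.7% ± 1.98 in starved control animals, and that of mec-7 in the β pool was 7.34% ± 0.766 and 16.97% ± 0.802 (SD, n = 3 each). In the F4+3 line mec-12 went from 9.35% ± 0.160 to 19.5% ± 0.939 and mec-7 from 7.30% ± 0.264 to 15.5% ± 0.117. The ciliary α-tubulins together made up 1.01% ± 0.0294 of the α pool in fed and 3.69% ± 0.166 in starved control animals.

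Within-library ratios were tested over 4 ratios and 7 comparisons, and 3 libraries against 3 cannot give an exact permutation p below 0.1. The ratio of mec-7 and tbb-4 to tbb-1 and tbb-2 was 2.72-fold higher in starved than in fed control animals and 2.40-fold higher in the F4+3 line. It was 2.09-fold higher in fertile and 3.93-fold higher in sterile adults than in controls. The ratio of mec-12 to tba-1 and tba-2 was 2.99-fold and 2.51-fold higher in starved L1 animals of the control and F4+3 lines. In adults this ratio was 1.64-fold higher in fertile and 5.38-fold higher in sterile animals than in controls. None of these groups overlapped, each at the smallest exact permutation p of 0.1 (two-sided, adjusted p = 0.165 over 28 tests). The same held for mec-7 and tbb-4 to tbb-1 and tbb-2 between the lines without food, at a smaller log2 difference of -0.15 (F4+3 minus control). With food this ratio overlapped between the lines, and the other ratios overlapped between them with and without food. The ratio of tbb-1 to tbb-2 did not overlap between starved and fed animals of the F4+3 line (log2 difference -0.31, exact permutation p = 0.1). It overlapped in the control line (-0.10, exact permutation p = 0.6).

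Among the other tubulins of the worm, tba-8, an α-tubulin, fell most without food, 9.66-fold in the control line (adjusted p = 2.13e-07, limma) and 4.74-fold in the F4+3 line. Its libraries held 1159, 1442 and 646 with and 139, 127 and 65.8 without food in the control line. The α-tubulin tba-4 fell 3.14-fold, the β-tubulin tbb-6 3.26-fold and tbg-1 1.28-fold in the control line, and the call of ben-1 in the F4+3 line (1.26-fold lower) was lost in edgeR.

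Of 7 tubulin folding cofactors, which assemble the dimer, 1 rose and 4 fell without food in the control line and 1 rose and 5 fell in the F4+3 line. The cofactor A gene tbca-1 fell 2.91-fold and 3.15-fold, and the cofactor B gene tbcb-1 2.07-fold and 1.95-fold. The gene that rose was coel-1, related to cofactor E, whose human relative is known to destabilize tubulin: it went from 1320 ± 348 to 5634 ± 641 in the control line, 4.35-fold (adjusted p = 5.3e-07, limma), and rose 6.56-fold in the F4+3 line. Of 19 microtubule-associated proteins 0 rose and 11 fell in the control line, with ebp-2, which binds growing plus ends, 2.34-fold lower. In the F4+3 line 1 rose and 13 fell. Of all genes 58.1% and 57.5% were called in these comparisons, 30.5% and 30.4% falling.

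**Figure D5:**
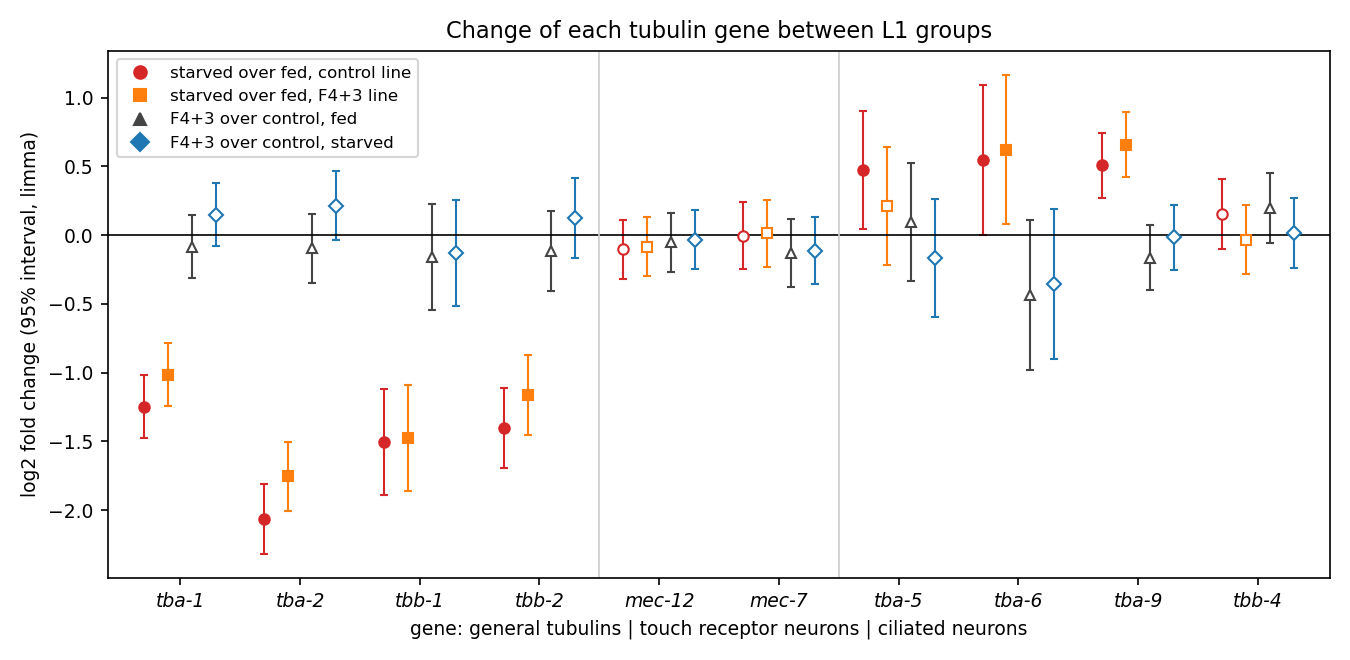
Log2 fold change of each tubulin gene with its 95% interval (limma) for starved over fed L1 animals in the control and F4+3 lines and for F4+3 over control with and without food, with filled symbols for adjusted p under 0.1. The general tubulins lie between -2.07 and -1.02 for starved over fed in both lines, and no symbol is filled for F4+3 over control.

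The F4+3 line was compared with the control line to ask what starvation of ancestors had left in descendants. None of the 10 tubulins was called with food (0.0126% of all genes were, 2 of 15902; 1366 genes had an unadjusted p under 0.05, and edgeR called 2, DESeq2 216 and limma with a replicate block 52) or without food (0 of 15902; 811 genes had an unadjusted p under 0.05, and edgeR called 0 and DESeq2 48). No tubulin had an unadjusted p under 0.05 in either comparison, and edgeR and DESeq2 called 0 of the 10. The smallest adjusted p was 0.666 with and 0.941 without food (limma).

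With food tba-6 had the largest of these log2 differences, -0.43 (95% interval -0.98 to 0.11), with 51.5 to 66.9 in control and 34.9 to 54.02 in F4+3 libraries, which overlap. For tbb-4 the control libraries at 540 to 602 lay below the F4+3 libraries at 637 to 716, a difference of 0.20 (-0.05 to 0.45); groups did not overlap for 12.8% of all genes. Without fed control replicate 1 the differences of tba-1, tba-2, tbb-1, tbb-2, mec-12 and mec-7 with food turned from slightly negative to slightly positive. The widest interval among the 4 general and 2 touch neuron tubulins was that of tbb-1, -0.54 to 0.23 with food.

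Without food tba-2 held 9115 to 9515 in control and 9689 to 12413 in F4+3 animals, a log2 difference of 0.22 (95% interval -0.04 to 0.47). For tbb-2 the ranges were 13715 to 15066 and 15617 to 15772, with a difference of 0.12 (-0.17 to 0.42). These groups did not overlap, as was so for 10.6% of all genes. Intervals of mec-7 were -0.37 to 0.11 with and -0.36 to 0.13 without food.

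The genes most like 4 of the tubulins were sought among genes with a mean of at least 50, by the root mean square difference of log2 levels over the libraries after centring each gene. Over the 9 adult libraries the 3 nearest to tbb-2 were paa-1 (0.0369), let-92 (0.0477), both subunits of protein phosphatase 2A, and T04C9.1 (0.0487). The tubulins nearest to it were tba-2, in place 114 of 9955 genes, and tbb-1, in place 399. Nearest to mec-7 were T07D3.4 (0.104), pab-2 (0.108), a poly(A)-binding protein, and Y39E4B.6 (0.109), with mec-12 in place 375. Nearest to tbb-4 were rga-2 (0.202), ceh-34 (0.225), a homeobox gene of pharyngeal neurons, and cpt-4 (0.241). For tba-5, which had only 2 to 16 reads per adult library, they were C36E8.4 (0.372), col-95 (0.411) and mig-13 (0.426).

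Over the 12 L1 libraries the nearest to tbb-2 were pbs-5 (0.0730), a proteasome subunit, tufm-1 (0.0745) and cey-4 (0.0769), and tba-1 was in place 19 of 12453. Nearest to mec-7 were ucr-2.1 (0.0415), spc-1 (0.0492), α-spectrin, and dpf-5 (0.0547), with mec-12 in place 94. For tbb-4 they were W05H9.4 (0.0678), lat-1 (0.0752) and rars-2 (0.0891). For tba-5 they were clh-2 (0.0973), Y71H2AM.10 (0.104) and trp-4 (0.108), a mechanosensitive channel of ciliated dopamine neurons. Genes that vary little between libraries lie near each other by this measure, and mec-7 and tbb-4 were not called in any L1 comparison.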

How the data were processed

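RNA of whole animals was sequenced as single-end reads from NuGEN Ovation libraries with ribosomal RNA depletion, and per the methods of the authors the reads were mapped to WS220 with Subread, assigned to genes with featureCounts and analysed with DESeq2 (versions not given in the sources used here). The deposited values are a signal per gene and library, the count that the authors normalized with DESeq2. Deposited columns of fold changes and p-values were not used. Of the rows, 3 of 17723 (adult) and 1 of 23185 (L1) with missing or negative cells were left out. Column names of sterile libraries also hold the word fertile, and were matched by the word sterile. Whole reads were recovered from each library's step (100% of values within 0.1 of a whole number), and this recovery carries every edgeR and DESeq2 value; for 7 adult libraries and 1 L1 library it has no separate check of units.

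Tests were limma 3.58.1 in R 4.3.3 (trend) on log2(normalized count + 1) for genes with a mean of at least 10, all groups of an experiment in 1 fit, Benjamini-Hochberg over all genes, at 0.05 for adults and 0.1 for L1 animals. Ratios used exact permutation tests (scipy). The calling was tested on simulated data. The genes and lists were chosen with earlier results of these data known. Named genes were all 10 tubulins, other tubulins that passed, at most 4 called genes of smallest p per list, and the 3 nearest genes by pattern. Alternatives were a pseudocount of 0.5, no filter, a replicate block, only the groups compared, TMM scaling, edgeR 4.0.16, DESeq2 1.42.0 and each library left out; for ratios, pseudocounts of 0 and 5. Replicates of a group differed by more than sampling noise. The replicate numbers of the labels were taken to pair fertile with sterile adults, which per the methods were separated from the same F4L1starved animals: same-numbered libraries deviated together in all 3 pairs (r = 0.17 to 0.38, against -0.24 to 0.099 for other pairs). Other groups were not taken as paired (0 of 6 adult and 8 of 18 L1 correlations over 0.1). A fit of fertile and sterile adults alone with the replicate block was added after seeing the data.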

Additional observations from a re-analysis of the deposited data

How the results depend on the processing

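No alternative moved the count of tubulins called by more than 1.5 times except leaving out libraries in the comparison of fertile and control adults, where the count of 3 ranged from 1 to 5. Starved against fed control L1 animals gave 6 in place of 7 with no filter, only the groups compared or TMM scaling, tba-6 being the gene lost, and sterile against fertile adults 7 in place of 8 with only the groups compared, with or without the replicate block that pairs them, tba-9 being the gene lost. The block changed no other call of a tubulin there. Over all groups a replicate block left the counts of tubulins at 3, 7 and 8 in the adult comparisons, 7 and 6 in the food comparisons and 0 in the line comparisons. Counts over all genes moved by more than 1.5 times in some comparisons. In fertile against control adults only the groups compared gave 5011 in place of 2936, with 3 tubulins called in both. For line with food DESeq2 gave 216, the replicate block 52 and only the groups compared 3 in place of 2. For line without food DESeq2 gave 48, the block 3 and no filter 1 in place of 0, and for the difference of these effects DESeq2 gave 17 and the block 1 in place of 0.

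Differences near 0 changed sign, none of them called. With TMM scaling tbb-1 in fertile adults was 0.016 (edgeR 0.036), mec-7 in starved F4+3 animals -0.032 and tba-9 in F4+3 against control without food 0.0028. For mec-7 in starved control animals edgeR gave 0.0099 and DESeq2 0.0075. Leaving out single libraries gave these ranges. In fertile adults tbb-1 spanned -0.20 to 0.024. For food, mec-7 spanned -0.10 to 0.13 in the control line and -0.022 to 0.036 in the F4+3 line, and tbb-4 -0.060 to 0.023 in the latter. For line with food, tba-1 spanned -0.15 to 0.021, tba-2 -0.16 to 0.017, mec-12 -0.11 to 0.00080, tbb-1 -0.30 to 0.096, tbb-2 -0.23 to 0.078 and mec-7 -0.23 to 0.0019. For line without food, tba-9 spanned -0.050 to 0.031, tbb-4 -0.098 to 0.088, mec-12 -0.079 to 0.048 and tba-5 -0.35 to 0.026. For the interaction, tba-6 spanned -0.31 to 0.075, mec-12 -0.10 to 0.035, tbb-1 -0.17 to 0.22 and mec-7 -0.11 to 0.12. The cause was not tested.

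Depth limits tba-5 and tba-6 in adults, with 0 to 16 reads per library. With 3 libraries per group small differences cannot be shown to be absent.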

Other observations

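The wider microtubule machinery in sterile adults was mostly lower. All 4 tested genes of severing and depolymerization fell against control adults, with mei-2 and mei-1, the katanin subunits of the meiotic spindle, 6.21-fold and 4.76-fold lower (adjusted p = 4.2e-07 and 2.68e-06, limma) and the kinesin klp-7 2.27-fold lower. All 4 tested genes of the γ-tubulin complex fell, and of 18 tested microtubule-associated proteins 3 rose and 12 fell, against 41.3% of all genes that rose and 41.8% that fell. Among those that rose was maph-1.1, a MAP1 family gene, 3.00-fold.

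Of 7 folding cofactors 1 rose and 6 fell in sterile adults, where 41.3% of all genes rose and 41.8% fell. Those lower included tbcb-1, 4.26-fold, and tbcd-1, 3.37-fold. In fertile adults tbcb-1 was 2.03-fold lower than in controls (adjusted p = 0.00255, limma), with 554 ± 107 against 1113 ± 50.2 (SD, n = 3). Of 8 tested tubulin-modifying enzymes 0 were called in fertile adults, and in sterile adults 2 rose and 4 fell. Of all genes 21.9% were called in fertile and 83% in sterile adults against controls. Without food 5 of 10 were called in L1 animals of each line, in both directions, where 58.1% (control line) and 57.5% (F4+3 line) of all genes were called.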
